A study of Mus musculus with 6 samples.

Results

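The genes described here encode the machinery that brings proteins into mitochondria. They were chosen by symbol from the table of all genes: every gene whose symbol starts with *Timm* or *Tomm*, plus *Grpel1*, *Grpel2*, *Pmpca*, *Pmpcb*, *Samm50*, *Chchd4*, *Dnlz* and *Gfer*. This gave 33 of 15707 genes. The rule used symbols alone and no expression value, although it was set with earlier results of these data known. The study depleted *Btg4*, an adaptor of the CCR4-NOT deadenylase that shortens poly(A) tails, and sequenced polyadenylated RNA of mouse oocytes at metaphase II. *Btg4*-depleted oocytes had been injected with a mix of siRNAs against *Btg4*, and control oocytes with control siRNAs. There were 3 libraries of each group with 50 oocytes in a library. Every oocyte came from (C57BL x CBA) F1 females aged 10 to 12 days. Ovaries of several females were pooled, and the follicles were kept in culture for 8 to 10 days before the oocytes were isolated and matured. By the labels, strain, culture and stage were the same in both groups, and the injected siRNA differed.

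Nearly all mitochondrial proteins are encoded in the nucleus, made in the cytosol and imported. Precursors are recognized by receptors of the TOM complex and cross the outer membrane through its TOMM40 channel. They then take different routes. Proteins with a cleavable presequence pass through the TIM23 channel, are pulled in by a motor built around the chaperone HSPA9 and are trimmed by the processing peptidase. Carrier proteins are escorted by the small TIM chaperones to the TIM22 channel, barrel-shaped proteins are inserted by the SAM complex, and small cysteine-rich proteins are trapped by the CHCHD4 and GFER relay. Oocytes carry a large stock of mitochondria and maternal mRNAs through meiosis.

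The values are the authors' means of FPKM (fragments per kilobase of transcript and per 1e6 mapped fragments) over the 3 libraries of a group. The values of single libraries were not analysed here. The table therefore gives no replicate error, none of the differences below could be tested, and "higher" and "lower" only describe the means. The depth, estimated by setting a mean normalized count of 320 genes against their FPKM, was about 7.82 M fragments per library (M, 1e6), with 5th and 95th percentiles over genes of 6.92 and 8.12 M. *Btg4* itself had a mean of 39.3 FPKM in *Btg4*-depleted oocytes, against 1766 FPKM in control oocytes. The 10 oocyte markers looked up (among them *Zp3*, *Gdf9* and *Mos*) summed to 11689 FPKM in *Btg4*-depleted oocytes and 10959 FPKM in control oocytes. Single markers differed in both directions, with *Zp3* at 3766 FPKM in *Btg4*-depleted and 1398 FPKM in control oocytes and *Oosp1* at 464 FPKM in *Btg4*-depleted and 1184 FPKM in control oocytes. Of 10 granulosa and cumulus cell markers 7 were listed, with sums of 34.1 FPKM in *Btg4*-depleted and 35.9 FPKM in control oocytes. These too differed in both directions. *Cyp19a1* had 5.87 FPKM in *Btg4*-depleted and 14.8 FPKM in control oocytes, and *Inhba* had 9.24 FPKM in *Btg4*-depleted and 4.28 FPKM in control oocytes. Of 6 theca and stroma markers 3 were listed and summed to 1.02 FPKM in *Btg4*-depleted and 1.48 FPKM in control oocytes, and of 5 blood and immune markers 1 was listed, at 0.527 FPKM in *Btg4*-depleted and 1.00 FPKM in control oocytes. Because the cDNA was primed on the poly(A) tail, a longer tail, more RNA in an oocyte and a different make-up of the pooled oocytes cannot be told apart in these values.

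Of the 33 import genes, 28 had a mean over both groups of at least 1 FPKM and were given a log2 ratio. The ratio was computed on FPKM + 1 after TMM scaling, which added 0.16 on the log2 scale to *Btg4*-depleted over control. A ratio on this scale understates the difference of weakly expressed genes. In *Btg4*-depleted oocytes 14 of the 28 were higher by 2-fold or more, 2 were at least 2-fold lower and 12 lay in between. Over all 10012 genes measured the same way, 19.5% were at least 2-fold higher and 11.4% at least 2-fold lower. The median log2 ratio of the import genes was 0.92, against -0.02 for all genes, and 24 of the 28 had a ratio above 0, all of which stayed above 0 without scaling except *Timm21*, *Timm23* and *Tomm7*. Without scaling, 11 were at least 2-fold higher and 2 at least 2-fold lower, with *Grpel1*, *Pmpca* and *Timm13* inside the limit. Of all genes, 16.2% were then at least 2-fold higher and 16.7% at least 2-fold lower, and their median moved to -0.15. The scaling also moved the split of genes past the limit. Of all such genes 63.1% were higher with scaling and 49.1% without it, and of the import genes 87.5% and 84.6%. *Tomm20*, *Dnlz* and *Chchd4* passed the filter although their control mean was under 1 FPKM, and such genes could only come out higher. Without them 12 of 25 were at least 2-fold higher.

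**Figure D1:**
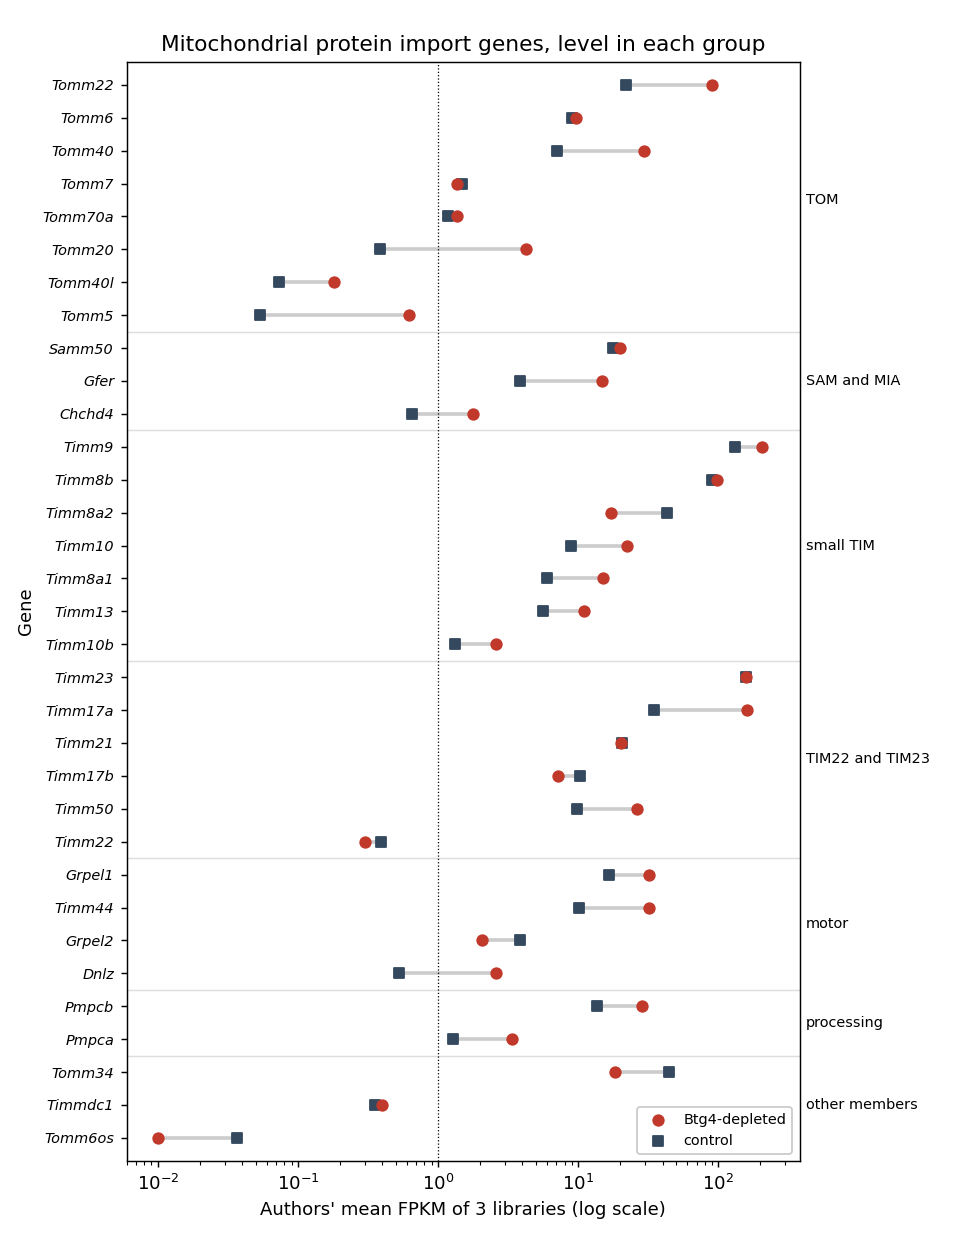
Authors' mean FPKM over 3 libraries (log scale) of the 33 import genes, grouped by role, with circles for *Btg4*-depleted and squares for control oocytes and a dotted line at 1 FPKM. The levels spanned 0.01 to 206 FPKM, and the circle lies right of the square for *Timm17a*, *Tomm22*, *Tomm40* and *Tomm20* among others, and left of it for *Tomm34*, *Timm8a2*, *Grpel2*, *Timm17b*, *Timm22*, *Timm23*, *Timm21*, *Tomm7* and *Tomm6os*.

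Summed over the 33 genes, import transcripts reached 1037 FPKM in *Btg4*-depleted oocytes, against 676 FPKM in control oocytes. They made up 0.242% of all FPKM in *Btg4*-depleted and 0.165% in control oocytes. The 3 most abundant genes held 50.4% of the import FPKM in *Btg4*-depleted and 56.5% in control oocytes. *Timm9*, *Timm17a* and *Timm23* held these places in *Btg4*-depleted oocytes, and *Timm23*, *Timm9* and *Timm8b* in control oocytes. Levels of at least 10 FPKM were found for 18 genes in *Btg4*-depleted and 13 in control oocytes, and levels under 1 FPKM for 5 genes in *Btg4*-depleted and 8 in control oocytes.

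In the TOM complex, the entry gate of the outer membrane, 3 of 6 measured genes were at least 2-fold higher, against 19.5% of all genes. *Tomm20* was among them and, with a control mean under 1 FPKM, could only come out higher. The summed level was 137 FPKM in *Btg4*-depleted and 41.0 FPKM in control oocytes. *Tomm22*, the central receptor that holds the complex together, had 90.9 FPKM in *Btg4*-depleted oocytes, against 21.9 FPKM in control oocytes, a log2 ratio of 2.17. *Tomm40*, the channel itself, had 29.3 FPKM in *Btg4*-depleted and 7.08 FPKM in control oocytes, a log2 ratio of 2.06. These genes thus differed to nearly the same degree, and the level of *Tomm22* was 3.10 times that of *Tomm40* in *Btg4*-depleted and 3.09 times in control oocytes. *Tomm20*, the receptor for presequences, was far less abundant, with 4.28 FPKM in *Btg4*-depleted and 0.383 FPKM in control oocytes. Its log2 ratio was 2.02 on the scale of FPKM + 1, while the plain ratio of the means was 11.2. The control mean corresponds to an estimated 15.0 fragments per library, against 167 in *Btg4*-depleted oocytes. The gene has 5 near-identical stretches elsewhere in the genome, so its reads may be divided or shared. *Tomm22* likewise has a processed pseudogene (*Gm12906*, 270 bases, 98.1% identity), and *Tomm40* shares 239 bases of its coding sequence with *Gm20512*, a transcript annotated as antisense. Whether the counting used strand is not stated. *Tomm70a*, the receptor preferred by carrier proteins, stood apart from the other receptors with 1.37 FPKM in *Btg4*-depleted and 1.18 FPKM in control oocytes.

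The small TOM subunits, which stabilize the channel, differed among themselves. *Tomm6* had 9.68 FPKM in *Btg4*-depleted and 9.02 FPKM in control oocytes (log2 ratio 0.24). *Tomm7* had 1.36 FPKM in *Btg4*-depleted and 1.48 FPKM in control oocytes (log2 ratio 0.03). *Tomm5* was below the filter, with 0.623 FPKM in *Btg4*-depleted and 0.0533 FPKM in control oocytes, which is an estimated 3.18 and 0.272 fragments per library of these groups, too few to compare. *Tomm40l*, the paralogue of *Tomm40*, had 0.18 FPKM in *Btg4*-depleted and 0.0733 FPKM in control oocytes. At these levels *Tomm40* was the channel gene of this family in both groups, and *Tomm40* without *Tomm40l* gave 99.4% of their summed FPKM in *Btg4*-depleted and 99.0% in control oocytes.

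Of the other routes out of or beside the TOM gate, *Gfer* stood out. It encodes the sulphhydryl oxidase that recharges CHCHD4, and had 14.9 FPKM in *Btg4*-depleted oocytes, against 3.86 FPKM in control oocytes, a log2 ratio of 1.85. *Chchd4*, the oxidoreductase that traps precursors in the intermembrane space, had 1.77 FPKM in *Btg4*-depleted and 0.657 FPKM in control oocytes (log2 ratio 0.83). These levels rest on an estimated 17.3 fragments per library in *Btg4*-depleted and 6.40 in control oocytes. *Samm50*, the channel that inserts barrel proteins such as TOMM40 into the outer membrane, had 19.8 FPKM in *Btg4*-depleted and 17.6 FPKM in control oocytes (log2 ratio 0.31), and so differed little although the *Tomm40* level differed about 4-fold.

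The small TIM chaperones work as hexamers in the intermembrane space, TIMM9 with TIMM10 and TIMM8A or TIMM8B with TIMM13. Of the 7 genes, all measured, 3 were at least 2-fold higher and 1 at least 2-fold lower (all genes 19.5% and 11.4%), with a median log2 ratio of 0.80. *Timm9* was the most abundant import gene of *Btg4*-depleted oocytes, with 206 FPKM, against 132 FPKM in control oocytes (log2 ratio 0.80). Its partner *Timm10* had 22.3 FPKM in *Btg4*-depleted and 8.91 FPKM in control oocytes (log2 ratio 1.38). The level of *Timm9* was thus 9.24 times that of *Timm10* in *Btg4*-depleted and 14.9 times in control oocytes. *Timm13* had 11.1 FPKM in *Btg4*-depleted and 5.61 FPKM in control oocytes (log2 ratio 1.01), at the limit of 2-fold. *Timm8b* had 98.3 FPKM in *Btg4*-depleted and 90.9 FPKM in control oocytes (log2 ratio 0.27). *Timm10b*, whose product holds the chaperones at the TIM22 channel, was low, with 2.59 FPKM in *Btg4*-depleted and 1.33 FPKM in control oocytes (log2 ratio 0.73). The less abundant gene had the larger ratio in the pairs of *Timm9* with *Timm10* and of *Timm8b* with *Timm13*, but not in that of *Timm8a1* with *Timm13*.

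*Timm8a1* and *Timm8a2*, closely related genes, differed in opposite directions. *Timm8a1* had 14.9 FPKM in *Btg4*-depleted oocytes, against 6.01 FPKM in control oocytes (log2 ratio 1.33). *Timm8a2* had 17.2 FPKM in *Btg4*-depleted oocytes, against 42.7 FPKM in control oocytes, a log2 ratio of -1.11 and the lowest of the measured import genes. The level of *Timm8a2* was 1.15 times that of *Timm8a1* in *Btg4*-depleted oocytes and 7.11 times in control oocytes. A processed pseudogene carries the whole *Timm8a1* coding sequence (294 bases, 100% identity), and how the counting treated it is not given in the sources used here.

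The inner membrane channel genes ranged from a log2 ratio of -0.30 to 2.33. *Timm17a*, a core subunit of the presequence translocase, had 161 FPKM in *Btg4*-depleted oocytes, against 34.9 FPKM in control oocytes. Its log2 ratio of 2.33 was the highest of the 28 and lay at the 99.0th percentile of all genes. *Timm50*, the receptor that takes over presequences from TOM, had 26.5 FPKM in *Btg4*-depleted and 9.78 FPKM in control oocytes (log2 ratio 1.51). *Timm23*, the partner of *Timm17a* in the channel, had 157 FPKM in *Btg4*-depleted and 159 FPKM in control oocytes (log2 ratio 0.15, and -0.02 without scaling). *Timm21*, which links the channel to TOM, had 20.1 FPKM in *Btg4*-depleted and 20.4 FPKM in control oocytes (log2 ratio 0.14, and -0.02 without scaling). In FPKM, *Timm17a* was thus at 1.03 times *Timm23* in *Btg4*-depleted oocytes and at 0.220 times *Timm23* in control oocytes. A ratio between genes depends on the lengths used. The authors' length for *Timm17a* was 917 bases, while its nearest annotated coding transcript has 7280 bases. *Timm23* has 6 near-identical stretches in the genome, 1 of them in a gene annotated as coding (*Gm10273*, 630 bases, 100% identity), and *Timm17a* has a processed pseudogene (*Gm7180*, 516 bases, 96.3% identity). *Timm22*, the carrier channel, was below the filter, with 0.303 FPKM in *Btg4*-depleted and 0.39 FPKM in control oocytes.

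*Timm17b*, the paralogue of *Timm17a*, was lower in *Btg4*-depleted oocytes, with 7.22 FPKM against 10.2 FPKM in control oocytes (log2 ratio -0.30, inside the 2-fold limit). *Timm17a* made up 95.7% of the FPKM of this pair in *Btg4*-depleted and 77.3% in control oocytes. The exchange factors of the motor showed the same arrangement. *Grpel1*, which releases nucleotide from HSPA9, had 31.9 FPKM in *Btg4*-depleted and 16.7 FPKM in control oocytes (log2 ratio 1.05). Its paralogue *Grpel2* had 2.05 FPKM in *Btg4*-depleted and 3.82 FPKM in control oocytes (log2 ratio -0.54), and a processed pseudogene (*Gm5587*) matches its coding sequence over 675 bases at 97.8% identity. *Grpel1* made up 94.0% of the pair's FPKM in *Btg4*-depleted and 81.3% in control oocytes. In these 3 pairs of paralogues the genes lay on opposite sides of 0, with *Timm17b* and *Grpel2* within 2-fold. This was not so for all related genes. *Timm8a1* and *Timm8b* both lay above 0 (1.33 and 0.27), and *Tomm40l* was not measured. The member of the 3 pairs that was higher in *Btg4*-depleted oocytes was the more abundant in control oocytes for *Timm17a* and *Grpel1* but not for *Timm8a1*.

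**Figure D2:**
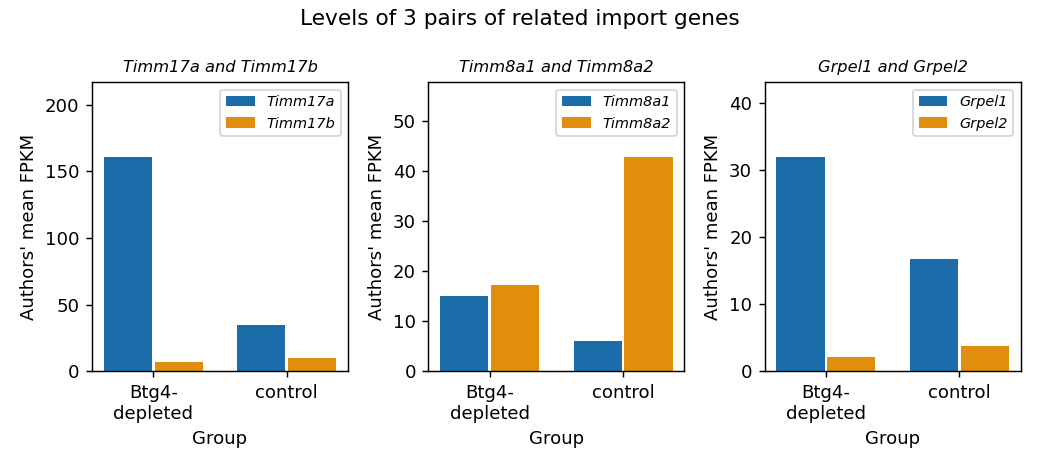
Authors' mean FPKM of 3 pairs of related genes in *Btg4*-depleted and control oocytes, a bar for each gene and group, with no error bars because the table holds group means. *Timm17a* and *Grpel1* were the larger bar in both groups, while *Timm8a2* was far above *Timm8a1* in control oocytes and close to it in *Btg4*-depleted oocytes.

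Of the 4 motor genes 3 were at least 2-fold higher (all genes 19.5%), and 2 without scaling (all genes 16.2%). *Dnlz*, with a control mean under 1 FPKM, could only come out higher. *Timm44*, which anchors the motor at the channel, had 32.2 FPKM in *Btg4*-depleted oocytes, against 10.2 FPKM in control oocytes (log2 ratio 1.72). *Dnlz*, whose product keeps HSPA9 soluble, had 2.59 FPKM in *Btg4*-depleted and 0.53 FPKM in control oocytes (log2 ratio 1.32). This is an estimated 59.5 fragments per library in *Btg4*-depleted and 12.2 in control oocytes. Both subunits of the processing peptidase, which cuts off presequences, were just past 2-fold. *Pmpcb*, the catalytic beta subunit, had 28.4 FPKM in *Btg4*-depleted and 13.6 FPKM in control oocytes (log2 ratio 1.17), and *Pmpca*, the alpha subunit, had 3.37 FPKM in *Btg4*-depleted and 1.28 FPKM in control oocytes (log2 ratio 1.05). The beta subunit was thus 8.42 times as abundant per length as the alpha subunit in *Btg4*-depleted oocytes and 10.6 times in control oocytes.

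The rule also took in 3 genes that are no subunits of an import complex. *Tomm34*, a cytosolic co-chaperone, had 18.4 FPKM in *Btg4*-depleted oocytes, against 44.2 FPKM in control oocytes, a log2 ratio of -1.06. It and *Timm8a2* were the 2 genes past the limit on the lower side. *Timmdc1*, an assembly factor of respiratory complex I, had 0.40 FPKM in *Btg4*-depleted and 0.353 FPKM in control oocytes. *Tomm6os*, a transcript opposite *Tomm6*, had 0.01 FPKM in *Btg4*-depleted and 0.0367 FPKM in control oocytes. With these 3 left out, 14 of 27 measured genes were at least 2-fold higher and 1 at least 2-fold lower (all genes 19.5% and 11.4%).

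**Figure D3:**
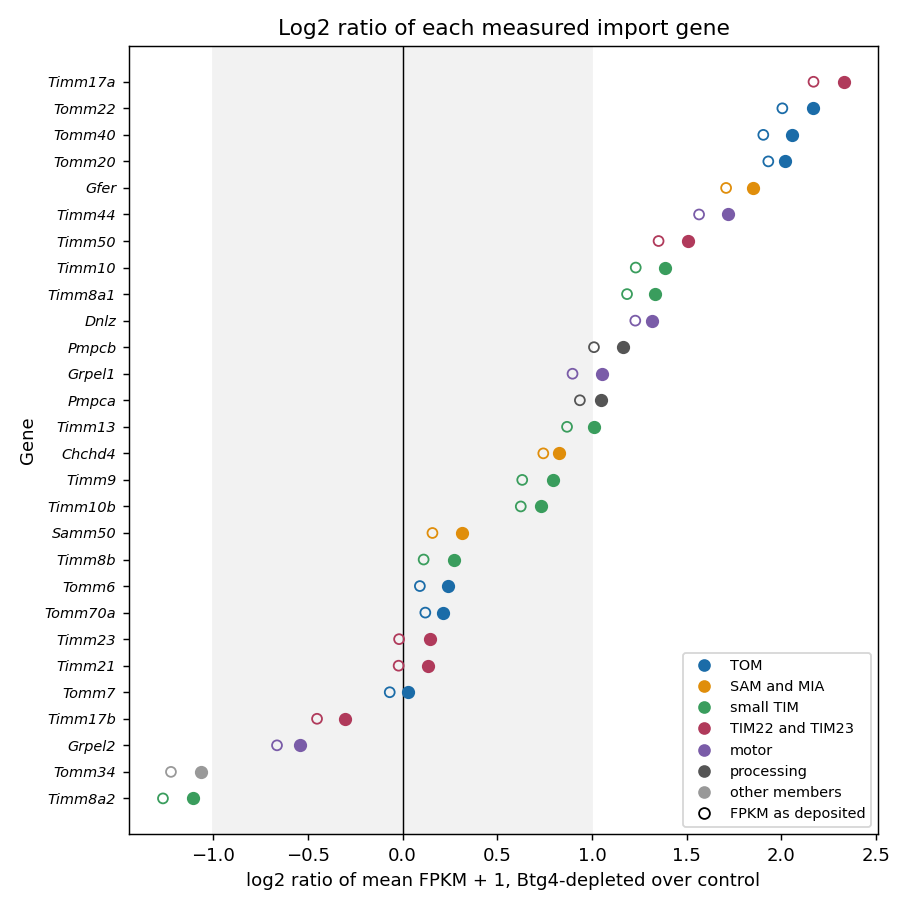
Log2 ratio of mean FPKM + 1, *Btg4*-depleted over control, of the 28 measured import genes in order of size, with filled points after TMM scaling, coloured by role, and open points for FPKM as deposited. The shaded band lies within 2-fold, 14 filled points are right of it and 2 left of it, and *Timm21*, *Timm23* and *Tomm7* have open points just left of 0.

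Genes that work with these subunits but were not taken by the symbols differed in both directions. Of 22 such genes 19 were measured, of which 5 were at least 2-fold higher and 4 at least 2-fold lower, with a median log2 ratio of 0.14. Over all genes these shares were 19.5% and 11.4%. *Xpnpep3* passed the filter although its mean in *Btg4*-depleted oocytes was under 1 FPKM, and such a gene could only come out lower. *Oxa1l*, the insertase of the inner membrane, had 18.7 FPKM in *Btg4*-depleted and 4.76 FPKM in control oocytes (log2 ratio 1.92). *Aifm1*, which binds CHCHD4 in human cells, had 30.7 FPKM in *Btg4*-depleted and 9.99 FPKM in control oocytes (log2 ratio 1.68). *Dnajc15* and *Dnajc19*, J proteins of the motor, and *Mipep*, a peptidase that trims some precursors a further time, had log2 ratios of 1.64, 1.13 and 1.06. *Hspa9*, the motor chaperone, had 104 FPKM in *Btg4*-depleted and 147 FPKM in control oocytes (log2 ratio -0.34), so the motor's central ATPase did not share the direction of *Timm44*, *Grpel1* and *Dnlz*. *Hspd1*, which folds imported proteins in the matrix, was lower, with 30.0 FPKM in *Btg4*-depleted and 86.6 FPKM in control oocytes (log2 ratio -1.34), while its co-chaperonin *Hspe1* had 70.8 FPKM in *Btg4*-depleted and 50.1 FPKM in control oocytes (log2 ratio 0.65). *Agk*, a subunit of the TIM22 complex in human cells, had 6.81 FPKM in *Btg4*-depleted and 30.1 FPKM in control oocytes (log2 ratio -1.84). *Romo1*, a TIM23 component, had 17.0 FPKM in *Btg4*-depleted and 39.3 FPKM in control oocytes and was 2.01-fold lower on the scale of FPKM + 1. The peptidase gene *Xpnpep3* had 0.197 FPKM in *Btg4*-depleted and 2.65 FPKM in control oocytes (log2 ratio -1.53).

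As points of comparison, 2 other sets of nuclear genes whose products are imported were counted the same way. Of 76 measured genes for mitochondrial ribosomal proteins 30 (39.5%) were at least 2-fold higher and 1 at least 2-fold lower, with a median log2 ratio of 0.81. Of 44 measured complex I subunits 22 (50.0%) were at least 2-fold higher and 2 at least 2-fold lower, with a median of 1.01. The import genes, with 50.0% and a median of 0.92, were thus close to both sets, and nothing in these counts was particular to them.

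**Figure D4:**
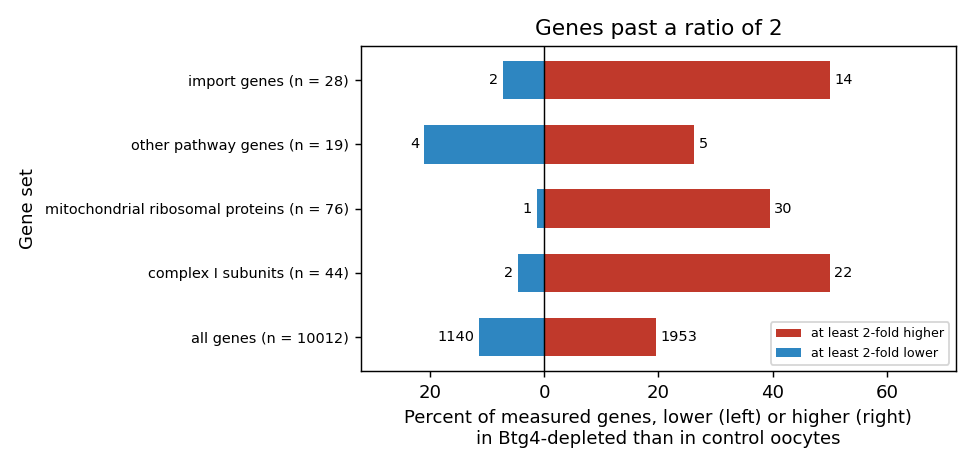
Percent of the measured genes of each set that were at least 2-fold higher (right of 0) or lower (left of 0) in *Btg4*-depleted than in control oocytes, with the number of genes at each bar. The right-hand bar reaches 50.0% for import genes and complex I subunits, 39.5% for mitochondrial ribosomal proteins and 19.5% for all genes, and the other pathway genes have the longest left-hand bar.

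Over all genes the log2 ratio went with transcript length. Across the 10012 measured genes Spearman's rho between them was -0.33, and the import genes were short, with a median of 1280 bases against 2684 bases for all genes. This is a description across genes of the same libraries, and FPKM themselves are divided by length. Among the 500 genes nearest in length to each import gene, on average 28.1% were at least 2-fold higher, and 18 of the 28 import genes had a ratio above the median of their neighbours. Within the 28 genes rho was -0.00. *Tomm20*, the longest at 4986 bases, had one of the highest ratios, and *Timm8b*, the shortest at 527 bases, had a ratio of 0.27. When the trend on length was taken out, 10 of 28 import genes were at least 2-fold higher, against 15.3% of all genes, and the median log2 ratio of the import genes was 0.44. *Pmpcb*, *Timm10*, *Timm13* and *Timm8a1* then lay inside the limit. The part of length in the differences was not tested further.

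**Figure D5:**
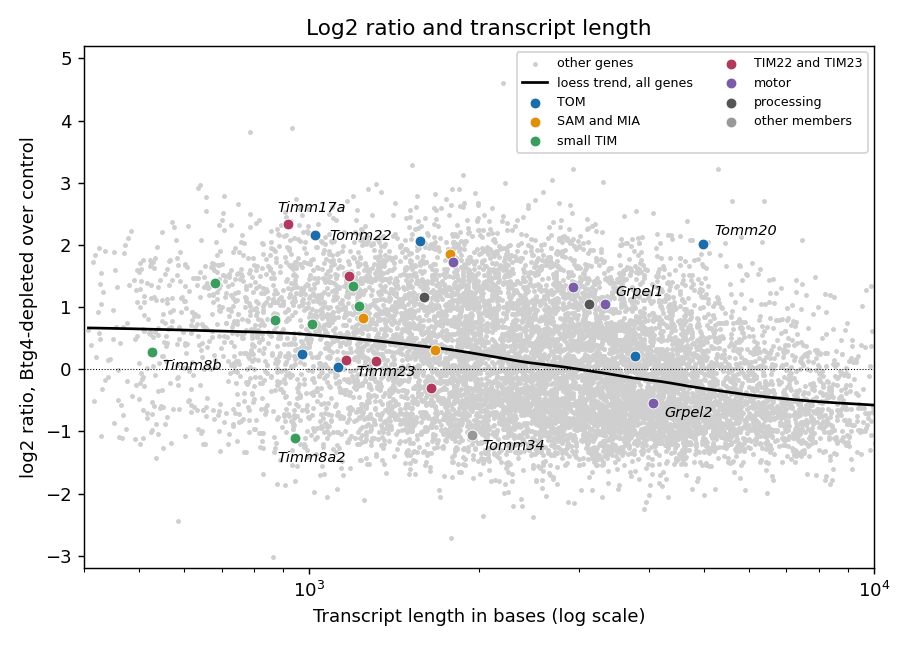
Log2 ratio of mean FPKM + 1, *Btg4*-depleted over control, against transcript length in bases (log scale), with grey points for all measured genes, coloured points for the import genes by role and a line for the loess trend over all genes. The line slopes down with length, *Timm17a*, *Tomm22* and *Tomm20* lie far above it, and *Timm8a2* and *Tomm34* lie below it. Outside the plotted range are 181 genes, none of them an import gene.

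The 3′ end of an mRNA carries the signals for its poly(A) tail, so the ends of the import transcripts are shown where the annotation gave a transcript of nearly the deposited length. Within 10% of that length, 18 of the 28 measured genes had a coding transcript in GENCODE M21. Transcripts were matched by total length alone, so these are annotated ends, and which ends the oocytes used was not tested. *Timm17a* and *Tomm22* were not among them, and their ends are not described. A cytoplasmic polyadenylation element (CPE), the site bound by CPEB in maturing oocytes, was searched for as TTTTAT or TTTTAAT on the sense strand of the last 150 bases of 3′ UTRs at least that long. It was found in 4 of 16 import genes (25%), against 27.4% of 7121 genes. The windows of these 4 are given because they span a ratio from well above to well below 0. The position is chr2:26348207-26348236 for *Dnlz*, chr9:50605243-50605272 for *Timm8b*, chr14:32180249-32180278 for *Timm23* and chr2:164053570-164053599 for *Tomm34* (GRCm38, *Timm8b* on the plus strand and the others on the minus strand). All lie in the 3′ UTR, and capitals mark the element.
Dnlz: cacttggcagacTTTTATttttgggtaaaa
Timm8b: tcaaaagtgaaaTTTTATttatgggaattc
Timm23: tcaggccatactTTTTATtaccatgttaat
Tomm34: taattgaactgaTTTTATtgaagtgtgtgt

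The log2 ratios of these 4 genes were 1.32, 0.27, 0.15 and -1.06. Their median was 0.21, against 1.05 for the 12 import genes whose last 150 bases held neither form. Over all genes the medians were -0.46 with an element and 0.03 without it. The high *Dnlz* and the low *Tomm34* both carried the element. With so few import genes, whether the ratio goes with the element was not tested. A match is no evidence of binding, and a gene without one may hold other forms.

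The cleavage signal near the end was looked for as AATAAA or ATTAAA on the sense strand of the last 40 bases of the 3′ UTR. The match nearest the end was taken, whichever form it had. A gene counted under either form may thus hold the other further from the end. The first form can share bases with the longer element above. AATAAA was the form counted for 10 of 18 import genes (55.6%), against 64.0% of all genes. ATTAAA was counted for 3 (16.7%, against 16.1%) and neither form for 5 (27.8%, against 19.9%). Of the genes with large differences, *Tomm20*, *Gfer* and *Timm44* on the higher side and *Timm8a2* on the lower side had the AATAAA form, *Timm10* (higher) and *Tomm34* (lower) had the other form, and *Tomm40* (higher) had neither. The windows shown, for the first 5 of these genes, are at chr8:126930685-126930714, chr17:24693199-24693228, chr8:4259748-4259777, chr14:122038380-122038409 and chr2:84830174-84830203 (GRCm38, the first 3 on the minus strand, the last 2 on the plus strand). Capitals mark the signal.
Tomm20: atatgcaccttggcatttcaAATAAAcacc
Gfer: tccttagcgtttgaggccaaAATAAActga
Timm44: taagcctaagatctggacctAATAAAacac
Timm8a2: tcaaaagactgtacatacaaAATAAAtatt
Timm10: tgtgtatatgtatatatcttATTAAAacaa

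AATAAA, the form counted for 64.0% of all genes, stood at the end of *Tomm20*, with a log2 ratio of 2.02, and of *Timm8a2*, with a log2 ratio of -1.11. Whether the ratio goes with the form of the signal was not tested.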

How the data were processed

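RNA-seq of polyadenylated RNA was taken from 3 *Btg4*-depleted and 3 control libraries of mouse oocytes, grouped by their labels. For each gene, the deposited table gives the authors' mean of FPKM per group and a transcript length. BWA and mm9 appear in the submitters' processing notes, and neither the counting program nor the annotation is given in the sources used here. The authors' log2 ratios, differences, p-values, test statistics and probability scores in the same table and in their lists of called genes were not used. From those lists only the deposited mean normalized count over all libraries (a signal) was taken, to estimate depth.

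The planned test on single libraries could not be run, because the table gives means only. The log2 ratio was taken of FPKM + 1 after TMM scaling of the group means (30% of ratios and 5% of levels trimmed on each side, the factor split evenly between groups) over genes with a mean of at least 1 FPKM. Past the limit means a ratio of at least 2. Every import gene is accounted for. Other genes named come from fixed lists of pathway genes and markers. The import genes and all lists were chosen with earlier results of these data known. The computations were tested on simulated data.

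Alternatives were no scaling, median of ratios, a pseudocount of 0.1, no filter, a minimum of 5 FPKM, a ratio of 1.5, removal of a loess trend on length (span 30%) and leaving out genes that are no import subunits. Windows of 3′ UTRs were read from GENCODE M21 on GRCm38, whose coordinates are not those of the authors' mm9 alignment. Coding sequences of 32 import genes were searched against GENCODE transcripts with BLAST+ 2.17.0 for near-identical matches (at least 95% identity over at least 100 bases). A match in another annotated gene was found for 13. For *Tomm40*, *Tomm40l*, *Tomm6*, *Samm50* and *Timm10b* no match was a pseudogene, and the matched annotation may overlap the gene rather than be a copy. The software was statsmodels 0.14.6, scipy 1.17.1, pandas 2.3.3 and numpy 2.4.6 under Python 3.11.15.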

Additional observations from a re-analysis of the deposited data

How the results depend on the processing

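All 16 import genes past 2-fold kept their sign in every setting tried in which they were measured (13 of them at a minimum of 5 FPKM). Only removal of the length trend could have changed these signs. The scaling added 0.16 on the log2 scale, less than any of these ratios, and the pseudocount, filter and limit cannot change a sign. The number at least 2-fold higher, 14 in the reported setting, was 11 without scaling, 14 with median of ratios, 16 with a pseudocount of 0.1 (*Chchd4* and *Timm10b* added), 14 without a filter, 11 of 20 at a minimum of 5 FPKM, 10 with the length trend removed and 17 at a ratio of 1.5 (30.5% of all genes). Without the genes that have a near-identical match in another annotated gene, 9 of 17 import genes were at least 2-fold higher (19.5% of all genes). This setting was chosen after seeing the data. The number at least 2-fold lower was 1 without *Tomm34*, *Timmdc1* and *Tomm6os*. The median log2 ratio, 0.92 as reported, was 0.81 without scaling, 1.11 with a pseudocount of 0.1, 0.73 without a filter, 1.03 at a minimum of 5 FPKM, 0.44 with the length trend removed and 0.80 without genes under 1 FPKM in a group, also chosen after seeing the data. Of the 19 other pathway genes, 5 higher and 4 lower as reported, 3 were higher and 4 lower without scaling (all genes 16.2% and 16.7%). With the length trend removed 3 were higher and 6 lower (all genes 15.3% and 11.8%). At a ratio of 1.5, 8 were higher and 6 lower (all genes 30.5% and 28.2%). The cause of these shifts was not tested. Among genes within 2-fold, *Timm21*, *Timm23* and *Tomm7* changed sign without scaling, and *Samm50*, *Timm21*, *Timm23*, *Timm8b*, *Tomm6* and *Tomm7* with the length trend removed. No paired analysis was possible because the table gives 1 mean per group, and for the same reason no library could be left out. Genes at a few estimated fragments per library, such as *Tomm5* and *Tomm40l*, are too shallow to compare.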
